A study of Mus musculus with 15 samples.

Results

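The dystrophin glycoprotein complex and utrophin were described as 8 genes, Dmd, Utrn, Dag1, Sgca, Sgcb, Sgcd, Sspn and Nos1, taken by symbol from the 14272 named genes of the deposited expression table. All 8 were present in the table, and all 8 passed the filter on low values. RNA was sequenced from the quadriceps of male DBA/2J-mdx mice, a strain in which a mutation in Dmd stops the making of full-length dystrophin, so that every group carries the defect and a healthy group was not analysed here. The daily group (5 libraries) received prednisone, a glucocorticoid, at 1 mg/kg injected into the abdominal cavity 7 times a week. Mice of the weekly group (5 libraries) received the same dose 1 time a week and vehicle on the other days, with 6 vehicle injections a week. The vehicle group (5 libraries) received DMSO 7 times a week. The labels give the age as 6 months in the extraction protocol and as about 7 months elsewhere, and the sources used here do not give the length of treatment. Whether each library came from a separate mouse is not stated either, so p-values measure the spread between these libraries, which may be technical.

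Dystrophin ties the actin cytoskeleton of the muscle fibre to dystroglycan in the membrane, and dystroglycan binds laminin in the basement membrane outside. The sarcoglycans and sarcospan form a subcomplex beside dystroglycan that holds it in place, and neuronal nitric oxide synthase is anchored to the complex through the syntrophins and dystrophin itself. Utrophin is a close relative of dystrophin that sits at neuromuscular junctions in healthy adult muscle and can take over part of its role along the membrane when dystrophin is missing. The values below are RNA levels and hold no information on the amount or place of the proteins.

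The deposited values are CPM, read counts scaled to a common library total, and between 2780768 reads (weekly 4) and 11052552 reads (weekly 2) per library could be recovered from them. A pair of libraries stood apart from their groups. In daily 3, the transcript Gm26924 took 20.6% of the reads, against at most 3.03% in the other daily libraries. In weekly 4, the mitochondrial ribosomal RNA mt-Rnr2 took 0.570%, against 6.23% or more in the other weekly libraries, and the collagen genes Col1a1 and Col3a1 had 7723 and 10610 CPM there, against vehicle ranges of 395 to 439 CPM and 747 to 861 CPM. Values are therefore given on the deposited scale and after TMM scaling, a trimmed mean of ratios between libraries, which multiplied the CPM of daily 3 by more than that of any other library (factor 0.652, against 0.952 to 1.20 in the other 14). On the deposited scale the median of all genes was 0.24 lower (log2) in daily than in weekly libraries, and 0.17 higher in weekly than in vehicle libraries, so a small shift of 1 gene is read against those medians. The 5 vehicle libraries differed little from each other, with a chi-square per degree of freedom of 1.495 to 2.01 between pairs over all genes, against 4.61 to 211 between daily pairs and 19.2 to 88.6 between weekly pairs. Fibre markers (Ckm, Acta1 and 5 others) summed to 37388 CPM or more in every library, so the defining markers of the labelled muscle were present.

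Of the 8 genes, 0 passed in daily against vehicle libraries, where 3.89% of all 14059 tested genes passed (limma, Benjamini-Hochberg adjusted p under 0.05). In weekly against vehicle libraries 0 passed as well, where 8.06% of all genes passed. In daily against weekly libraries 1 of 8 passed, Sspn, which was lower, where 8.73% of all genes passed and 8.24% passed as lower. After TMM scaling the counts were 0 of 8 (9.08% of all genes), 0 of 8 (9.90%) and 1 of 8 (4.77%), and the 1 gene was then Dmd, which was higher in daily than in weekly libraries, as 2.09% of all genes were. At an unadjusted p under 0.05, 1 gene stood in each comparison: on the deposited scale Sspn, Sgcd and Sspn, and after TMM scaling Sspn, Dmd and Dmd. The edgeR and DESeq2 tests on recovered reads also called 0, 0 and 1 of the 8, the 1 gene being Dmd, where edgeR called 9.47%, 11.3% and 5.31% of all genes and DESeq2 11.4%, 13.6% and 7.47%. With array weights, which count variable libraries less, 2, 3 and 3 of the 8 passed, where 25.1%, 40.5% and 24.5% of all genes did. In fits of 2 groups 1 of 8 passed in weekly against vehicle (10.1% of all genes) and 0 in daily against weekly libraries (1.66%), and with a replicate block 0 passed in daily against weekly libraries (7.01%). Without weekly 4 and daily 3, 2, 2 and 3 of the 8 passed on the deposited scale, where 17.4%, 24.0% and 14.7% of all genes did, and 1 passed in each comparison with TMM scaling, where 20.4%, 17.2% and 12.2% did. The median log2 difference of the 8 genes was -0.11, 0.07 and -0.24 in the 3 comparisons on the deposited scale, beside -0.08, 0.17 and -0.24 for all tested genes, and -0.02, -0.11 and 0.03 after TMM scaling, beside 0.00, 0.01 and 0.01. With 8 genes, 1 call is the smallest count above 0, and nothing particular to the complex is read from it.

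**Figure D1:**
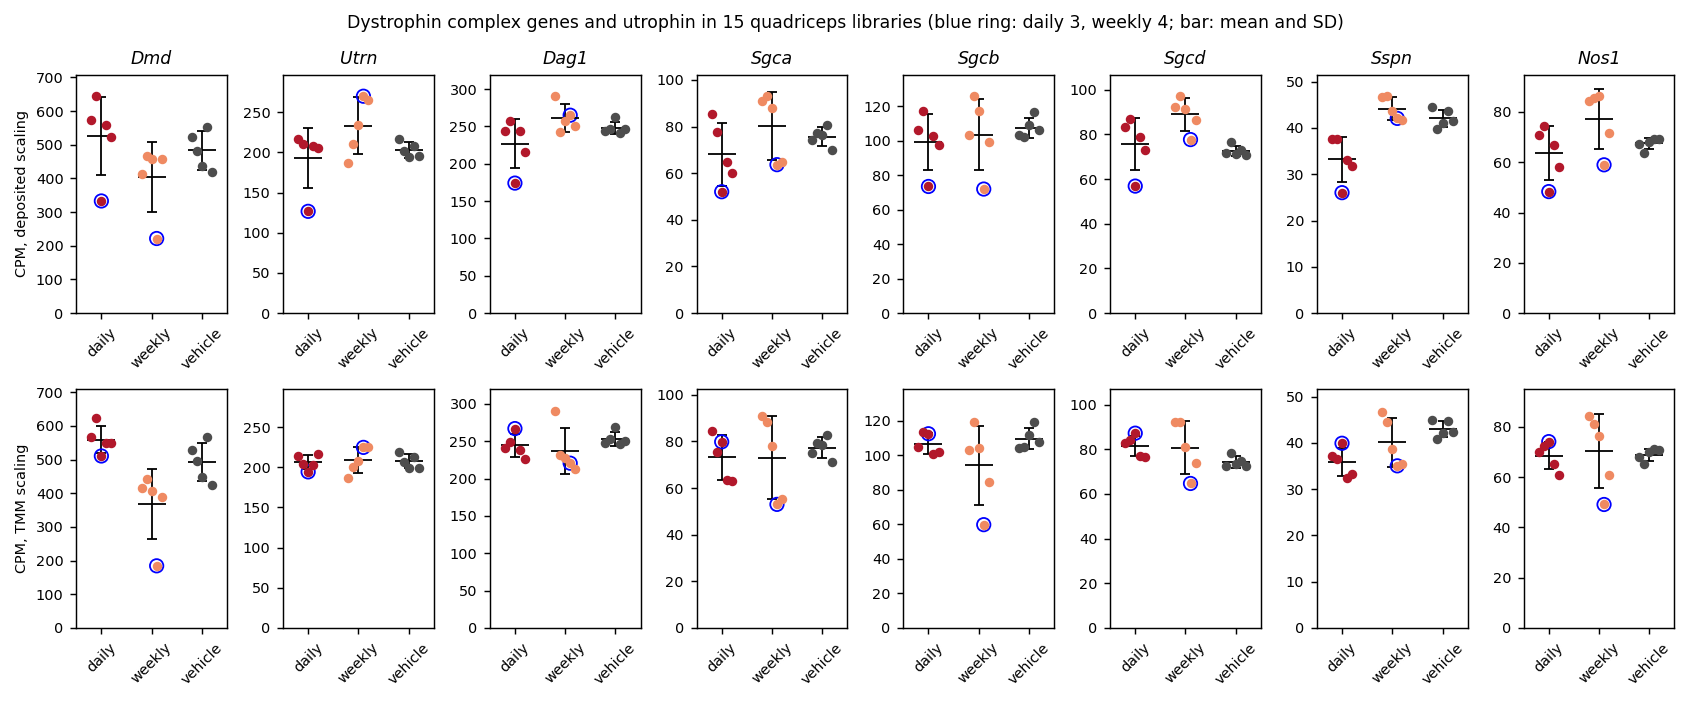
CPM of the 8 genes in each library (y axes, from 0) by group, on the deposited scale in the upper row and after TMM scaling in the lower row, with points for libraries, bars for the group mean and SD, and blue rings around daily 3 and weekly 4. Dmd reached 644 CPM in a daily library and 222 CPM in weekly 4, and Utrn spread over 127 to 270 CPM on the deposited scale but over 187 to 226 CPM after TMM scaling.

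Dmd, the dystrophin gene, had 572, 644, 333, 560 and 523 CPM in the daily libraries, 415, 466, 458, 222 and 457 CPM in the weekly libraries, and 524, 483, 438, 553 and 418 CPM in the vehicle libraries. Daily 3 and weekly 4 were the lowest of their groups, and 4 of 5 daily libraries lay above every weekly library. After TMM scaling the daily libraries had 566, 624, 511, 548 and 549 CPM, the weekly libraries 414, 443, 406, 184 and 390 CPM, and the vehicle libraries 530, 495, 449, 566.5 and 426 CPM. On that scale every daily library lay above every weekly library, which was so, in the higher direction, for 2.56% of all genes, while 4 of 5 weekly libraries lay below the lowest vehicle library. The group means were 560 ± 41.2, 367 ± 104 and 493 ± 57.4 CPM (daily, weekly and vehicle, TMM scaling, SD, n = 5 each).

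The log2 difference of Dmd between daily and weekly libraries was 0.67 after TMM scaling (SE 0.18, limma adjusted p = 0.0428) and 0.40 on the deposited scale (SE 0.20, adjusted p = 0.185). Without weekly 4 the TMM-scaled difference was 0.44 (SE 0.08, adjusted p = 0.000949), so the call did not need the library in which Dmd was lowest. In that fit 906 of 13959 genes passed as higher in daily than in weekly libraries, against 294 of 14059 with all libraries. Leaving out other single libraries ended the call of Dmd in 12 of 15 cases, with adjusted p-values up to 0.101 and differences of 0.63 to 0.72. The call held without weekly 1 (0.73), weekly 2 (0.75) or weekly 4. Against vehicle libraries Dmd measured 0.19 in daily libraries (SE 0.18, adjusted p = 0.605) and -0.48 in weekly libraries (SE 0.18, adjusted p = 0.101), both after TMM scaling. The weekly difference passed when weekly 4 was left out (-0.25, adjusted p = 0.0408), where 1063 of 13959 genes passed as lower (587 of 14059 with all libraries). Without weekly 4 and daily 3 it was -0.26 (adjusted p = 0.0341), and the daily one 0.21 (adjusted p = 0.0882). On the deposited scale the same differences with all libraries were 0.10 in daily and -0.30 in weekly libraries, neither of which passed (adjusted p = 0.853 and 0.355). Without both libraries the daily difference passed on that scale, at 0.25 from vehicle (adjusted p = 0.0477) and 0.35 from weekly libraries (adjusted p = 0.0122).

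Because these libraries are from whole muscle, a lower level from fewer fibres and less RNA per fibre cannot be told apart. The fibre-marker sum (7 of 7) of weekly 4 was 74819 CPM as deposited, higher than any vehicle library (at most 64626 CPM). TMM scaling brought it to 62286 CPM, slightly under the vehicle minimum of 63985 CPM. In weekly 4, where Dmd was lowest, markers of regenerating fibres (6 of 6 measured) summed to 795 CPM, and the sums ran from 126 to 294 CPM in daily, 184 to 795 CPM in the weekly libraries and 154 to 171 CPM in the vehicle libraries. Fibroblast markers (7 of 7) summed to 1521 to 2811 CPM in daily, 1652 to 18884 CPM in the weekly libraries and 1507 to 1707 CPM in the vehicle libraries, but the list did not move as one. Col1a1 and Col3a1 carried the sum of weekly 4, while Dcn (96.4 CPM there, against a vehicle range of 187 to 206 CPM) and Lum (26.3 CPM, against 33.4 to 37.1 CPM) were below the vehicle libraries. Macrophage markers (6 of 7) summed to 237 to 479 CPM in daily, 164 to 1449 CPM in the weekly libraries and 372 to 406 CPM in the vehicle libraries. No gene of these lists was at 0 in any library. Their part in the level of Dmd with all 5 weekly libraries was not tested, and the difference without weekly 4 is given above.

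Dmd lies on the plus strand of chromosome X from base 82948870 to base 85206141 (GRCm38), and its longest coding transcript has 79 exons and 14910 bases. A count per gene sums transcripts from several starts, so a full-length and a short dystrophin transcript cannot be separated here. The 250 bases before an early and a late start are printed to show how unlike they are, with matches of CANNTG (the general E-box, bound by myogenic factors), AGAACA (the half-site of the glucocorticoid response element) and GGGCGG (the GC box) in capitals, on either strand (RefSeq, GRCm38.p6).
Dmd, early start, chrX:82948620-82948869, plus strand: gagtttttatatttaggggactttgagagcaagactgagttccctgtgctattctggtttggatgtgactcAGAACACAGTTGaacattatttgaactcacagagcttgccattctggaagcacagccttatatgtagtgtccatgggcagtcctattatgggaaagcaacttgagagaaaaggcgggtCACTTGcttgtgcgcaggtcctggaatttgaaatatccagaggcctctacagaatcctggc
Dmd, internal start, chrX:85048045-85048294, plus strand: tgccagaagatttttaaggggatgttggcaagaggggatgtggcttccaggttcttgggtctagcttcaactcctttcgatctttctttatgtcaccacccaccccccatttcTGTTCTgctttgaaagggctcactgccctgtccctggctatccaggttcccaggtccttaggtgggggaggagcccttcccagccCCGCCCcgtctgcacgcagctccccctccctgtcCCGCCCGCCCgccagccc
The early window has 45.2% G and C, 2 matches of CANNTG, of which 1 runs into a match of AGAACA, and 0 of GGGCGG. The internal window has 60.0% G and C, 0 matches of CANNTG, 1 of AGAACA and 3 of GGGCGG. Among all 32851 windows of this length and placement, 66.2% hold CANNTG, 16.1% AGAACA and 32.7% GGGCGG, so each motif is common. A match is only a stretch of letters, and no binding was measured here.

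Utrn, the utrophin gene, had 216, 211, 127, 208 and 206 CPM in the daily libraries, 187, 211, 235, 270 and 265 CPM in the weekly libraries, and 217, 201, 194, 208 and 196 CPM in the vehicle libraries. Daily 3 was again the lowest library. After TMM scaling the means were 206 ± 8.80, 209 ± 16.5 and 207 ± 8.86 CPM (daily, weekly and vehicle, SD, n = 5 each), and the 15 libraries spread over 187 to 226 CPM with a coefficient of variation of 5.36%, against 15.8% on the deposited scale. The TMM-scaled log2 difference was -0.01 between daily and vehicle (95% interval -0.16 to 0.15), 0.01 between weekly and vehicle (-0.15 to 0.16), and -0.02 between daily and weekly libraries (-0.17 to 0.14). The widest of these bounds lies 0.17 from 0 on the log2 scale, and changes within the intervals could not be told from 0. On the deposited scale the 3 differences were -0.10, 0.19 and -0.28, and none passed (adjusted p = 0.799, 0.452 and 0.214). Markers of slow fibres, in which utrophin is more abundant, summed (7 of 7 genes) to 172 to 697 CPM for daily, 189 to 1722 CPM for weekly and 970 to 1105 CPM for vehicle libraries, with no gene at 0. Of the 7, 4 were lower in daily than in vehicle libraries on the deposited scale (Myh7, Myl2, Myl3 and Tnni1), and 3 after TMM scaling, where Myh7 did not pass (adjusted p = 0.0551). Their part in the level of Utrn was not tested. Utrn lies on the minus strand of chromosome 10, from base 12382188 to base 12869365.

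A ratio of both genes inside a library does not depend on the scaling. Dmd over Utrn, as a ratio of CPM, was 2.65, 3.05, 2.63, 2.70 and 2.54 in the daily libraries, 2.21, 2.21, 1.95, 0.820 and 1.73 in the weekly libraries, and 2.41, 2.40, 2.26, 2.66 and 2.14 in the vehicle libraries. Daily libraries lay above all weekly libraries, while daily and vehicle libraries overlapped, and so did weekly and vehicle libraries, by weekly 1 and weekly 2. Dmd made up 37.4% to 42.8% of the summed CPM of the 8 genes in daily, 20.7% to 34.2% in the weekly libraries and 34.3% to 40.0% in the vehicle libraries. The sum itself depends on the scaling. On the deposited scale its means were 1287 ± 239, 1292 ± 127 and 1300 ± 66.7 CPM, and after TMM scaling 1376 ± 55.4, 1172 ± 171 and 1327 ± 67.3 CPM (daily, weekly and vehicle, SD, n = 5 each). After TMM scaling every daily library (1327 to 1459 CPM) lay above every weekly library (892 to 1309 CPM), and both overlapped the vehicle libraries (1240 to 1418 CPM). Among the members, only Dmd separated daily from weekly libraries on that scale (means of 560, 367 and 493 CPM in daily, weekly and vehicle libraries). The sum therefore does not show a shift of the other members.

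**Figure D2:**
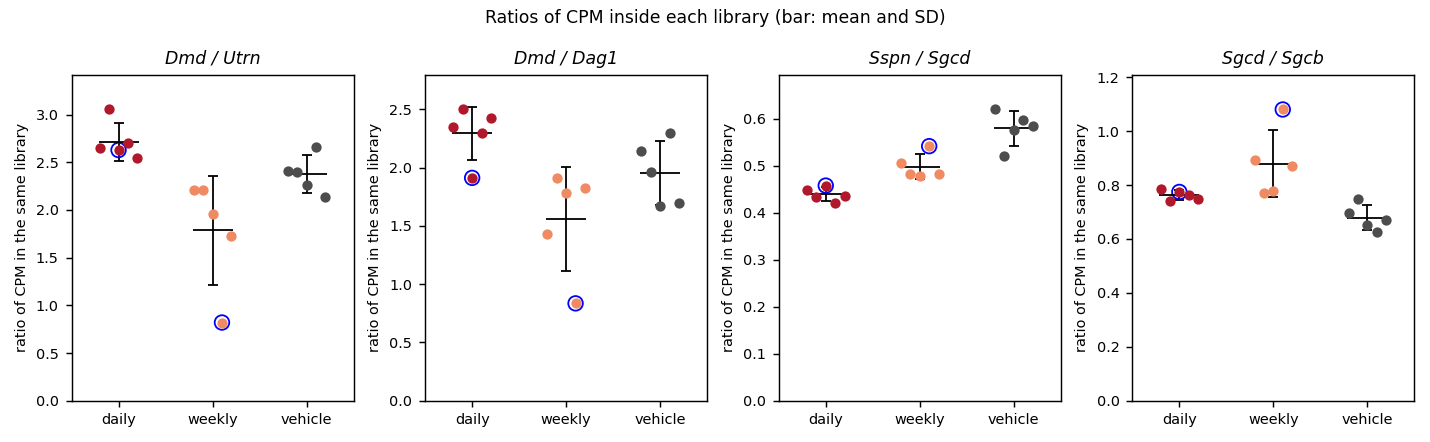
Ratios of CPM within each library (y axes, no unit, from 0) by group, for Dmd over Utrn, Dmd over Dag1, Sspn over Sgcd and Sgcd over Sgcb, with points for libraries, bars for mean and SD, and blue rings around daily 3 and weekly 4. Dmd over Utrn was 2.54 or more in every daily library and 2.21 or less in every weekly library, and Sspn over Sgcd was 0.458 or less in every daily library and 0.478 or more in every other library. Dmd over Dag1 overlapped between daily (lowest 1.913) and weekly libraries (highest 1.915).

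Dag1 encodes both dystroglycan subunits from 1 precursor, the one that binds laminin outside the fibre and the one that crosses the membrane. It had 244, 258, 174, 244 and 216 CPM in the daily libraries, 290, 243, 257, 265 and 250 CPM in the weekly libraries, and 244, 246, 262, 241 and 246 CPM in the vehicle libraries. The groups overlapped on both scales. After TMM scaling the log2 differences were -0.05 (daily against vehicle, 95% interval -0.23 to 0.13), -0.11 (weekly against vehicle, -0.29 to 0.07) and 0.05 (daily against weekly, -0.13 to 0.23), with adjusted p-values of 0.790, 0.465 and 0.775.

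The sarcoglycans cross the membrane as a group, and Sgca, Sgcb and Sgcd encode the alpha, beta and delta members. Sgca had 85.6, 77.7, 52.0, 64.9 and 60.1 CPM in the daily libraries, 90.8, 93.0, 88.1, 63.7 and 64.9 CPM in the weekly libraries, and 74.1, 77.1, 76.5, 80.9 and 70.0 CPM in the vehicle libraries. Weekly 4 and weekly 5 were low and the other 3 weekly libraries were above every vehicle library, so weekly libraries lay on both sides of the vehicle range. Sgcb had 106, 117, 73.4, 103 and 97.3 CPM in the daily libraries, 103, 126, 117, 71.9 and 99.2 CPM in the weekly libraries, and 103, 102, 109, 116 and 106 CPM in the vehicle libraries. For Sgca and Sgcb the groups overlapped on both scales, and no comparison passed on either (adjusted p of 0.245 or more). The widest of their TMM-scaled differences was Sgcb in weekly against vehicle libraries, at -0.25 (95% interval -0.54 to 0.03).

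Sgcd had 83.5, 86.8, 56.8, 78.7 and 72.9 CPM in the daily libraries, 92.2, 97.1, 91.4, 77.7 and 86.4 CPM in the weekly libraries, and 71.7, 76.4, 71.4, 72.9 and 71.0 CPM in the vehicle libraries. Every weekly library lay above every vehicle library on the deposited scale, which held, in the higher direction, for 11.8% of all genes. After TMM scaling weekly 4 had 64.7 CPM, below the vehicle range of 72.3 to 78.4 CPM, and the groups overlapped. The weekly difference from vehicle was 0.29 on the deposited scale (SE 0.13, limma adjusted p = 0.167) and 0.11 after TMM scaling (SE 0.09, adjusted p = 0.496). It passed on the deposited scale without daily 3 (0.29, adjusted p = 0.0245) and without weekly 4 and daily 3 (0.33, adjusted p = 0.00175) but not when TMM scaling was added (0.17, adjusted p = 0.117). Daily 3 takes no part in that comparison, but the spread of each gene was estimated over all 3 groups. Without daily 3, 1996 of 14040 genes passed as higher there on the deposited scale, against 983 of 14059 with all libraries. Sgcd over Sgcb was 0.740 to 0.785 in daily, 0.772 to 1.08 in the weekly libraries and 0.626 to 0.748 in the vehicle libraries, so that all weekly libraries and 4 of 5 daily libraries lay above the highest vehicle library. This pair too was picked after its values were seen, so the ratio is a description only.

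Sspn encodes sarcospan, a small protein with several membrane spans that binds the sarcoglycans. It had 37.5, 37.6, 26.0, 33.1 and 31.7 CPM in the daily libraries, 46.7, 46.9, 43.7, 42.1 and 41.7 CPM in the weekly libraries, and 44.4, 39.8, 41.1, 43.6 and 41.5 CPM in the vehicle libraries. Every daily library lay below every weekly and every vehicle library, which held for 6.98% of all genes against weekly and 8.82% against vehicle libraries. After TMM scaling the daily libraries had 37.1, 36.4, 39.9, 32.3 and 33.3 CPM, the weekly libraries 46.7, 44.5, 38.7, 35.0 and 35.5 CPM, and the vehicle libraries 44.9, 40.8, 42.2, 44.6 and 42.3 CPM. Daily libraries then still lay below every vehicle library (9.60% of all genes did so) but overlapped weekly libraries.

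The log2 difference of Sspn between daily and weekly libraries was -0.42 on the deposited scale (SE 0.13, limma adjusted p = 0.0412), of which -0.24 was the shift of the median gene, and -0.15 after TMM scaling (SE 0.09, adjusted p = 0.380). The deposited call ended without any 1 of 11 libraries, with adjusted p-values up to 0.0871, and held without daily 1, daily 2, daily 3 or weekly 4. It also ended in the fit of daily and weekly libraries alone, where 1.66% of all genes passed. Against vehicle libraries the daily difference was -0.35 (SE 0.13, adjusted p = 0.139), and -0.26 after TMM scaling (SE 0.09, adjusted p = 0.0986), where it passed when weekly 4 alone was left out (-0.26, adjusted p = 0.0233). Weekly 4 takes no part in that comparison, but it enters the spread estimated over all 3 groups. Without weekly 4, 1363 of 13959 genes passed as lower there after TMM scaling, against 488 of 14059 with all libraries. Without weekly 4 and daily 3 the daily difference from vehicle passed on both scales, at -0.27 (adjusted p = 0.0258) and, with TMM scaling, at -0.31 (adjusted p = 0.0116). Weekly libraries differed from vehicle by 0.07 on the deposited scale and by -0.11 after TMM scaling, neither of which passed (adjusted p = 0.769 and 0.504).

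Set against Sgcd of the same library, Sspn gave ratios of 0.449, 0.433, 0.458, 0.420 and 0.435 in daily, 0.507, 0.483, 0.478, 0.542 and 0.482 in weekly, and 0.620, 0.521, 0.575, 0.598 and 0.584 in vehicle libraries. Daily libraries were below all others in this ratio, and weekly libraries below vehicle libraries except that weekly 4 exceeded vehicle 2. The pair was picked after its values were seen, so the ratio is a description only. Adipocyte markers (7 of 7) summed to 132 to 302 CPM in daily, 471 to 2258 CPM in the weekly libraries and 427 to 467 CPM in the vehicle libraries. Smooth muscle and pericyte markers (5 of 6) summed to 238 to 265 CPM in daily, 270 to 297 CPM in the weekly libraries and 314 to 330 CPM in the vehicle libraries after TMM scaling, and on the deposited scale the weekly sums (285 to 335 CPM) overlapped those of vehicle (311 to 322 CPM). The higher vehicle sums after TMM scaling came from the pericyte gene Rgs5 (means of 116, 120 and 182 CPM in daily, weekly and vehicle libraries). Between daily and weekly libraries Rgs5 did not pass (limma adjusted p = 0.909, TMM scaling). Acta2 (33.0, 38.9 and 28.6 CPM) and Myh11 (35.3, 47.3 and 37.1 CPM), genes of smooth muscle, were instead called higher in weekly than in vehicle libraries. On the TMM scale Myh11 was also lower in daily than in weekly libraries (-0.41, limma adjusted p = 0.0248), while Acta2 did not pass (-0.24, adjusted p = 0.246). No gene of either list was at 0 in any library, and their part in the level of Sspn was not tested.

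Nos1, neuronal nitric oxide synthase, makes the nitric oxide that widens vessels around working fibres. It had 70.9, 74.6, 48.3, 66.8 and 57.9 CPM in the daily libraries, 84.2, 85.5, 86.3, 59.0 and 71.5 CPM in the weekly libraries, and 67.1, 63.7, 68.1, 69.4 and 69.3 CPM in the vehicle libraries. Of the weekly libraries 4 lay above the vehicle range and weekly 4 below it. The weekly difference from vehicle was 0.18 on the deposited scale (adjusted p = 0.443) and 0.00 after TMM scaling (SE 0.12, 95% interval -0.25 to 0.26, adjusted p = 0.994). Without weekly 4 and daily 3 it passed on the deposited scale (0.27, adjusted p = 0.0195) but not after TMM scaling (0.11, adjusted p = 0.417). The difference between daily and weekly libraries was then -0.28 (adjusted p = 0.0347), and -0.16 with TMM scaling (adjusted p = 0.269).

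**Figure D3:**
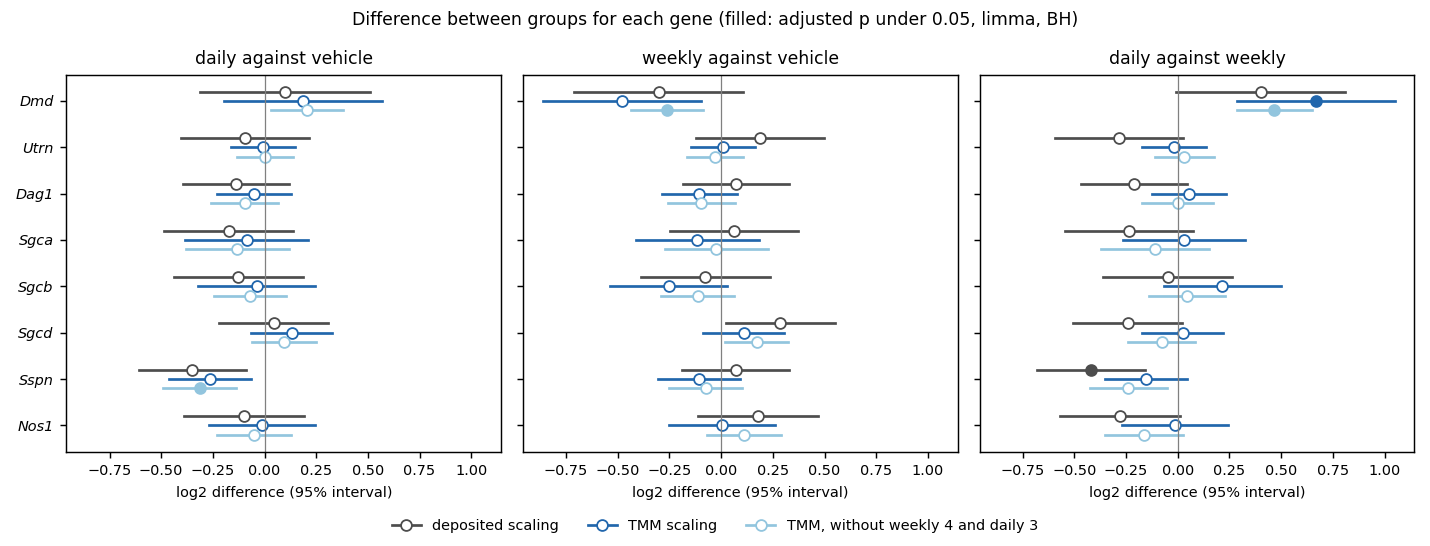
Log2 differences with 95% intervals (x axes) for the 8 genes (rows) in the 3 comparisons, on the deposited scale, after TMM scaling, and after TMM scaling without weekly 4 and daily 3, with filled points where the limma adjusted p was under 0.05. The filled points are Sspn and Dmd only, and the Dmd point in daily against weekly libraries moved between 0.40, 0.67 and 0.47.

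Per kilobase of the longest coding transcript, Dag1 and Sgca were the highest, at 40.1 ± 5.88 and 39.5 ± 7.83 CPM per kb in daily, 46.1 ± 3.22 and 46.4 ± 8.44 in weekly, and 43.8 ± 1.47 and 43.9 ± 2.33 in vehicle libraries (deposited scale, SD, n = 5). They did not differ beyond their spread in any group. Dmd followed in daily and vehicle libraries, at 35.3 ± 7.83 and 32.4 ± 3.80 CPM per kb, and stood at 27.1 ± 6.96 CPM per kb in weekly libraries, next to Sgcb at 27.4 ± 5.46. Sgcd had 30.9 ± 4.82, 36.3 ± 3.00 and 29.7 ± 0.903 CPM per kb in daily, weekly and vehicle libraries, within 1 SD of Dmd in daily and vehicle libraries. Utrn was lower than any of these, at 15.6 ± 3.03, 18.9 ± 2.85 and 16.4 ± 0.766 CPM per kb. Sspn had 7.36 ± 1.06, 9.80 ± 0.551 and 9.33 ± 0.419 CPM per kb, and Nos1 6.29 ± 1.05, 7.63 ± 1.17 and 6.67 ± 0.231 CPM per kb, the lowest in each group, though in daily libraries both lay within about 1 SD of each other. Sgca shares its locus with Hils1, and Dmd with Gm22580, Gm14769 and Gm14770, all of which have rows of their own. The sources used here do not say whether counting was by strand, so reads of such overlaps may be split.

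The genes whose TMM-scaled log2 pattern over the 15 libraries lay nearest to that of Dmd were Napb (root-mean-square distance 0.10), Ogt (0.12), Mpp5 (0.13), R3hdm1 (0.13) and Ubxn7 (0.13), where Dmd itself varied by 0.40 around its own mean. Each of them had its lowest group mean in weekly libraries, for example 47.4 CPM in daily, 32.1 CPM in the weekly libraries and 38.0 CPM in the vehicle libraries for Napb. They were chosen for nearness to the pattern of Dmd, so a like order of groups follows from the choice. That pattern includes weekly 4, where Dmd had 184 CPM, against 390 CPM or more in every other library (TMM scaling). Of the other 7 members, Sgcb was nearest to Dmd, at rank 304 (0.24), and Utrn was at rank 5033. Nearest to Utrn were Sidt2 (0.06), Tor1b (0.07), Qrich1 (0.07), Zfyve26 (0.07) and Zzef1 (0.08), where Utrn varied by 0.07, so that these are genes that hardly varied.

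Of the 8 other complex genes (the remaining sarcoglycans, the syntrophins and the dystrobrevins), 7 were measured. In daily against weekly libraries 1 of 7 was lower, where 8.24% of all genes were lower on the deposited scale. The gene was Sntb1, which encodes beta-1 syntrophin, an adaptor protein of the complex. It had 4.15 ± 1.72 CPM in daily and 9.34 ± 3.68 CPM in weekly libraries, against 5.06 ± 0.537 CPM in vehicle libraries (SD, n = 5 each). The difference between daily and weekly was -1.11 (SE 0.27, adjusted p = 0.0171), and -0.87 after TMM scaling (adjusted p = 0.0349). The call ended without weekly 5 on both scales, and after TMM scaling also without daily 1, daily 2, daily 3, weekly 3 or vehicle 1. No gene of this list passed in the other comparisons. Counts of the partner lists below stand beside shares of all genes of 3.89% (daily against vehicle), 8.06% (weekly against vehicle) and 8.73% (daily against weekly) on the deposited scale. After TMM scaling the shares were 9.08%, 9.90% and 4.77% in that order.

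Dystroglycan binds laminin only after its sugar chains have been built. Of 16 glycosylation genes 0 passed on the deposited scale in any comparison, and after TMM scaling 1, Large, which extends the laminin-binding sugar, was higher in daily than in vehicle libraries (0.32, adjusted p = 0.0443, held in 4 of 15 fits without 1 library). On the deposited scale the smallest p-values of the list belonged to Pomt1, an enzyme that starts the sugar chain, in daily against weekly libraries (-0.53, adjusted p = 0.0872), and to Large in weekly against vehicle libraries (0.39, adjusted p = 0.110). Of 10 matrix genes, Lamb1 and Lamc1, which encode laminin beta-1 and gamma-1 chains, rose in weekly against vehicle libraries, by 0.96 (SE 0.22, adjusted p = 0.00882) and 0.57 (SE 0.15, adjusted p = 0.0195). Lamb1 had 44.4 ± 8.87, 88.0 ± 40.0 and 41.8 ± 3.81 CPM in daily, weekly and vehicle libraries, with 148 CPM in weekly 4. The Lamb1 call held without every single library on both scales, and that of Lamc1 did so after TMM scaling (0.39, adjusted p = 0.0158), while on the deposited scale it ended without weekly 3, vehicle 2 or vehicle 4. The median over the matrix list in this comparison was 0.42, beside 0.17 for all genes. Lamb1 also differed between daily and weekly libraries (-0.90, adjusted p = 0.0162, ended without daily 3 or weekly 5), and after TMM scaling at -0.63 (adjusted p = 0.0490), a call that held in 3 of 15 fits without 1 library. Lama4 differed on the deposited scale only (-0.69, adjusted p = 0.0305, ended without daily 3, weekly 3 or weekly 5).

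Lama2 encodes the laminin alpha-2 chain, the main muscle ligand of dystroglycan, and did not pass on the deposited scale. After TMM scaling it was higher in daily than in vehicle libraries (0.45, SE 0.09, adjusted p = 0.00565) and in daily than in weekly libraries (0.51, adjusted p = 0.00426), held without each single library. Of 9 integrin-linked genes, Itga5, the fibronectin receptor alpha chain, rose in weekly against vehicle libraries by 1.13 (SE 0.21, adjusted p = 0.00208), and without weekly 4 and daily 3 after TMM scaling by 0.75 (adjusted p = 0.000114). After TMM scaling it was also higher in daily than in vehicle libraries (0.74, adjusted p = 0.0104). It had 47.9 ± 9.98, 69.9 ± 30.5 and 29.6 ± 2.00 CPM in daily, weekly and vehicle libraries. Itga7, the laminin-binding integrin alpha chain of muscle, passed at 0.53 (adjusted p = 0.0489), a call that 13 of 15 single libraries ended and TMM scaling too (0.35, adjusted p = 0.0546). Tln2, which links integrins to actin, differed between daily and weekly libraries on the deposited scale (-0.50, adjusted p = 0.0413, held in 5 of 15 fits without 1 library) and not after TMM scaling (-0.24, adjusted p = 0.176).

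**Figure D4:**
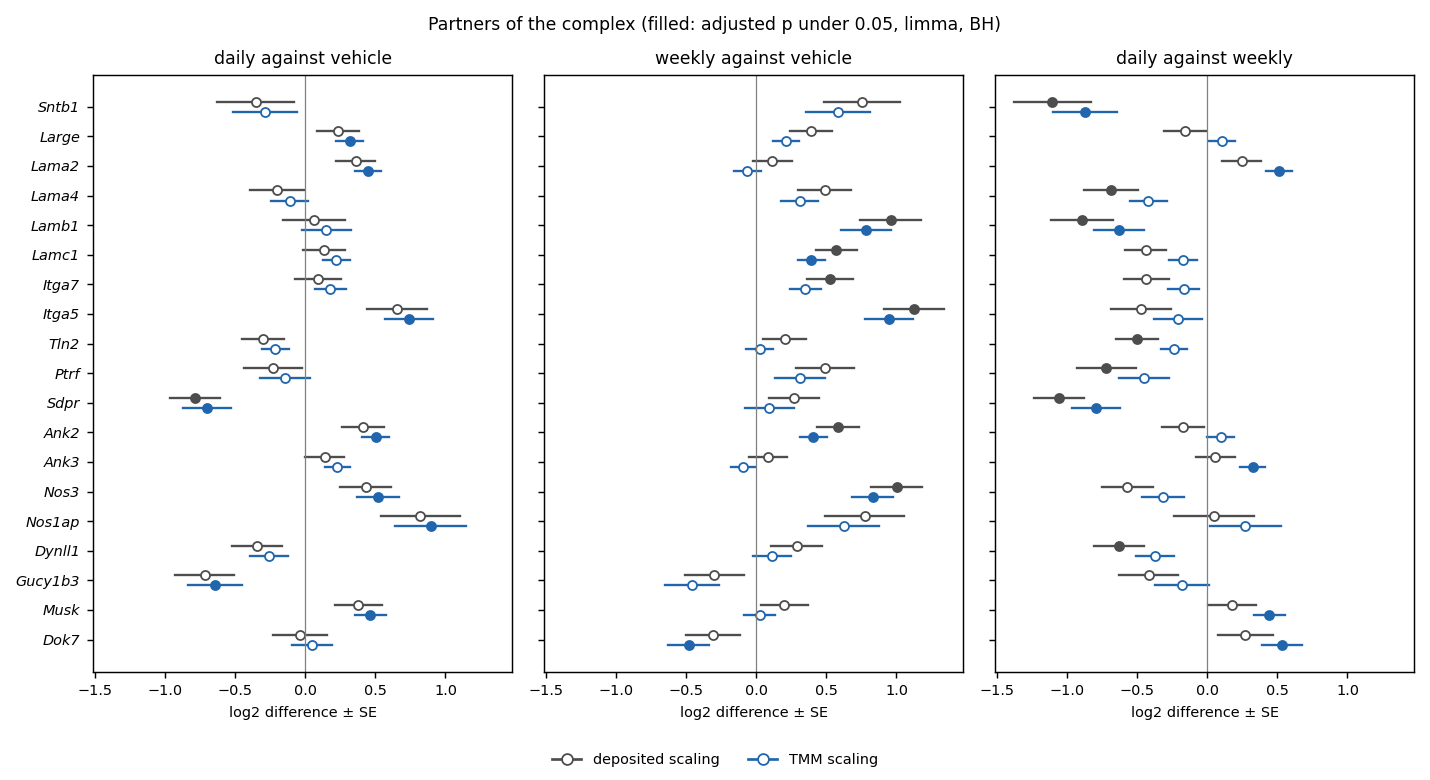
Log2 differences with their SE (x axes) for the partner genes (rows) called in at least 1 comparison on either scale, in dark grey on the deposited scale and in blue after TMM scaling, filled where the limma adjusted p was under 0.05. Sdpr lay at -0.79 and -1.06 in daily against vehicle and daily against weekly libraries, and Itga5 and Nos3 at 1.13 and 1.00 in weekly against vehicle libraries.

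Of 6 caveola genes, Sdpr (cavin 2) fell in daily libraries, to 20.4 ± 2.14 CPM against 44.6 ± 15.3 CPM in the weekly libraries and 35.5 ± 3.64 CPM in the vehicle libraries. Its differences were -0.79 from vehicle (SE 0.18, adjusted p = 0.0119) and -1.06 from weekly libraries (SE 0.18, adjusted p = 0.000993), and both held without each single library on both scales. Adipocyte and endothelial cells are rich in caveolae. The adipocyte sums given above were likewise lowest in daily libraries, though Lep of that list was not (daily mean 8.55 CPM, vehicle mean 6.22 CPM). Endothelial sums of daily libraries lay below all weekly sums on the deposited scale (highest 274 CPM, lowest weekly 276 CPM) but overlapped vehicle sums. With TMM scaling they overlapped both groups (daily 264 to 273 CPM, weekly 263 to 379 CPM, vehicle 264 to 285 CPM). The part of either cell type in Sdpr was not tested. Over the 6 caveola genes the median difference of daily from vehicle libraries was -0.46, beside -0.08 for all genes. Ptrf (cavin 1) was lower in daily than in weekly libraries on the deposited scale only (-0.72, adjusted p = 0.0362, held in 9 of 15 fits without 1 library). Of 14 cytoskeletal partners 11 were tested, and Ank2, an ankyrin that helps keep dystrophin at costameres, rose in weekly against vehicle libraries by 0.59 (SE 0.15, adjusted p = 0.0182) and, after TMM scaling, by 0.41 (adjusted p = 0.0118). After TMM scaling it was also higher in daily than in vehicle libraries (0.50, adjusted p = 0.00266). The deposited call ended without vehicle 2 or vehicle 3, and the TMM-scaled ones held without each single library. Ank3, another ankyrin, passed only after TMM scaling, as higher in daily than in weekly libraries (0.32, adjusted p = 0.0447), and held in 3 of 15 such fits.

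Of 7 genes tied to nitric oxide signalling, Nos3, the endothelial synthase, rose in weekly against vehicle libraries by 1.00 (SE 0.18, adjusted p = 0.00127), at 10.7 ± 1.81, 16.4 ± 4.28 and 7.73 ± 0.759 CPM in daily, weekly and vehicle libraries. The call held without each single library on both scales. Endothelial markers (8 of 8) summed to 175 to 274 CPM in daily, 276 to 445 CPM in the weekly libraries and 261 to 278 CPM in the vehicle libraries on the deposited scale. After TMM scaling the sums were 264 to 273, 263 to 379 and 264 to 285 CPM in that order, and their part in Nos3 was not tested. Dynll1, a dynein light chain that binds neuronal nitric oxide synthase, was lower in daily than in weekly libraries on the deposited scale (-0.63, adjusted p = 0.0333, ended without daily 3, daily 5, weekly 3 or weekly 5), and did not pass after TMM scaling. In daily against vehicle libraries, after TMM scaling only, Nos3 and Nos1ap, an adaptor of the neuronal synthase, were higher (0.52 and 0.90, adjusted p = 0.0380 and 0.0326), and Gucy1b3, a subunit of the nitric oxide receptor, was lower (-0.64, adjusted p = 0.0443). Those 3 calls held in 6, 7 and 4 of 15 fits without 1 library. Of 11 genes of the neuromuscular junction, where utrophin is concentrated, 0 passed on the deposited scale. After TMM scaling Musk, the receptor kinase of the junction, was higher in daily than in vehicle (0.46, adjusted p = 0.0126) and in weekly libraries (0.44, adjusted p = 0.0275), calls that held in 14 and 10 of 15 fits without 1 library. Dok7, an activator of that kinase, was then higher in daily than in weekly libraries (0.53, adjusted p = 0.0414) and lower in weekly than in vehicle libraries (-0.48, adjusted p = 0.0410), and held in 2 and 4 of 15 fits.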

How the data were processed

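The authors deposited a table of CPM values, read counts scaled to a common library total, although its name calls them RPKM. Per the submitters' processing notes the reads were handled with TopHat2 2.1.0, HTSeq and edgeR on mm10 (GRCm38), and the sources used here do not say whether HTSeq counted by strand. All 222090 of 222090 CPM values were whole multiples of 1 read within 0.01 reads, which gave the reads used by edgeR 4.0.16 and DESeq2 1.42.0. Of 14806 features, 534 without a gene name (0.276% to 0.447% of reads) were left out, 21 named genes had date-like symbols, and 7 symbols stood on 2 lines.

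Log2(CPM + 0.5) of the 14059 genes with at least 1 CPM in at least 5 libraries was fitted with limma 3.58.1 (trend, empirical Bayes) over all 15 libraries, with Benjamini-Hochberg adjustment over all genes and a threshold of 0.05. A log2 difference on this scale understates the change of low genes. The spread of each gene was pooled over all 3 groups, so daily against weekly calls also drew on the vehicle libraries, which differed least. The members and lists were chosen with earlier results of these data known, and partner genes named only after TMM scaling were picked after their values were seen. From each partner list the genes called in any comparison are named, or the 2 with the smallest p. Alternatives were TMM and median-of-ratios scaling, other pseudocounts, no filter, edgeR, DESeq2, array weights, fits of 2 groups, replicate blocks, and leaving libraries out. Gene positions come from GENCODE for GRCm38 and promoter sequences from RefSeq (GRCm38.p6).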

Additional observations from a re-analysis of the deposited data

Results flagged for a closer look

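In weekly 4, Dmd had 222 CPM, where the other 4 weekly libraries had 415 to 466 CPM, and after TMM scaling it stood apart as well, at 184 CPM. In daily 3, Utrn had 127 CPM, where the other daily libraries had 206 to 216 CPM, and after TMM scaling it had 194 CPM and no longer stood apart. In vehicle 3, Dag1 had 262 CPM, where the other vehicle libraries had 241 to 246 CPM, and it stood apart after TMM scaling too, at 269 CPM. These 3 came from 24 groups of 5 values examined, of which chance alone would flag about 1 in 20. The difference of Sspn from vehicle libraries was 0.42 lower (log2) in daily than in weekly libraries (-0.42, limma adjusted p = 0.0412, deposited scale), a difference tested directly that was not called after TMM scaling (-0.15).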

How the results depend on the processing

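The number of the 8 genes called in daily against vehicle libraries was 0, and it became 2 with array weights or without weekly 4 and daily 3 (Dmd, Sspn), and 1 with TMM scaling and without both (Sspn). In weekly against vehicle libraries it was 0, and became 3 with array weights (Utrn, Sgcd, Nos1), 1 in the fit of 2 groups (Sgcd), 2 without weekly 4 and daily 3 (Sgcd, Nos1), and 1 with TMM scaling and without both (Dmd). In daily against weekly libraries it was 1, and became 3 with array weights or without weekly 4 and daily 3 (Dmd, Sspn, Nos1), and 0 in the fit of 2 groups and with the replicate block. All these counts stand beside shares of all genes that moved as well: with array weights 25.1%, 40.5% and 24.5% of all genes passed in the 3 comparisons, in the fit of 2 groups 10.1% in weekly against vehicle and 1.66% in daily against weekly libraries, and with the replicate block 7.01% in the last. Leaving out single libraries gave 0 to 1 calls in each comparison, with or without TMM scaling.

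The replicate numbers do not pair the libraries, since same-numbered libraries correlated at -0.03 to 0.15 in their deviations from the group means. With the replicate block Sspn in daily against weekly libraries stayed at -0.42 (adjusted p = 0.0708), and no other call changed.

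Directions turned where differences were small. In daily against weekly libraries Dag1 (-0.21 as deposited) measured 0.054 with TMM scaling, 0.052 with median-of-ratios scaling, 0.048 with edgeR and 0.044 with DESeq2, and Sgcb (-0.050) measured 0.22, 0.21, 0.17 and 0.17 in that order. Sgca (-0.24) and Sgcd (-0.24) measured 0.030 and 0.024 with TMM scaling and 0.028 and 0.022 with median-of-ratios scaling, and Sgcd 0.0080 with edgeR. In weekly against vehicle libraries, with TMM scaling, median-of-ratios scaling, edgeR and DESeq2 in that order, Dag1 (0.073) measured -0.11, -0.11, -0.099 and -0.10, Sgca (0.062) -0.12, -0.12, -0.074 and -0.081, and Sspn (0.070) -0.11, -0.11, -0.095 and -0.096. Nos1 (0.18) measured -0.0046 there with median-of-ratios scaling. Array weights gave 0.080 for Sgcb in weekly against vehicle (-0.076), and 0.046 for Utrn (-0.096) and 0.017 for Nos1 (-0.099) in daily against vehicle libraries. Without weekly 4 and daily 3, Sgcb was 0.048 in weekly against vehicle and Utrn 0.050 in daily against vehicle libraries. With TMM scaling added, the values without both were -0.096 (Dag1), -0.023 (Sgca), -0.075 (Sspn) and -0.031 (Utrn) in weekly against vehicle, 0.044 (Sgcb) and 0.032 (Utrn) in daily against weekly, and 0.0011 (Utrn) in daily against vehicle libraries.

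Leaving out 1 library turned Utrn (-0.14 to 0.050) and Sgcd (-0.0084 to 0.14) in daily against vehicle, Sgcb (-0.15 to 0.048) in weekly against vehicle, and Sgcb (-0.17 to 0.055, and 0.026 and 0.0018 between them) in daily against weekly libraries. On the TMM scale, where leaving out 1 library was not planned, it turned Utrn in daily against vehicle (-0.038 to 0.016), weekly against vehicle (-0.018 to 0.049) and daily against weekly (-0.056 to 0.011), Nos1 in the same comparisons (-0.039 to 0.031, -0.069 to 0.12, -0.14 to 0.057), and Sgca (-0.076 to 0.12) and Sgcd (-0.052 to 0.075) in daily against weekly libraries. Sspn in weekly against vehicle libraries kept its sign there (-0.16 to -0.062). The cause of these turns was not tested. Weekly 4, with 616 reads of Dmd and 117 of Sspn, was the shallowest library.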
